A study of Rattus norvegicus with 16 samples.

Results

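The 4519 annotated heart transcripts described here carry Ensembl rat transcript identifiers, were listed for all 16 libraries, and had a mean value over those libraries of at least 5 and under 100. They make up 36.0% of the 12553 annotated transcripts and 14.6% of the 31042 transcripts of either kind that the 16 files share. The others are 479 annotated transcripts of mean 100 or more, 7555 of mean under 5, and transcripts assembled by the authors. The measured mean chose the members, so their abundance is not a result. The rule used no difference between groups, but its mean holds more SHR than WKY libraries, which bears on some counts below. The means nearest to the limits were 4.9997 and 5.004 at the lower end, and 98.7 and 100.4 at the upper end.

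Hearts came from 3 groups of rats. The Wistar Kyoto rat (WKY, 5 animals) and the spontaneously hypertensive rat (SHR, 5 animals) were given double distilled water by stomach tube for 10 weeks. A further 6 SHR were given neferine by the same route at 10 mg/kg per day for 10 weeks, and SHR had been assigned at random to water or neferine, per the labels. The treatment fields of the 6 list double distilled water as well as neferine, while their descriptions and group name give neferine, and they were taken as treated. Both SHR groups therefore carry the hypertensive genotype, and no WKY rat received neferine. Ages were not given in the sources used here. Each library was total RNA after depletion of ribosomal RNA.

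SHR is an inbred strain that develops high blood pressure and, with it, an enlarged and fibrotic left ventricle. It is set against WKY, a strain of shared ancestry with normal blood pressure. The strains also differ at many places in the genome, so a difference between their hearts can come from an inherited variant of a gene as well as from the load on the heart. Neferine is an alkaloid from the green embryo of the lotus seed, studied for effects on blood vessels and heart muscle. A gene can give several transcripts through alternative starts, splicing and ends. Reads shared by these are divided among them when abundance is estimated per transcript, so 1 transcript can gain or lose while its gene does not.

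Neither the files nor the reference tables paired any member with a gene name (0 of 4519), so transcripts are given by identifier, without gene, position or sequence. Markers of heart muscle or of other cardiac cell types were not checked here for the same reason. In bulk tissue, fewer cells of a type and less RNA per cell cannot be told apart. Among the 4519 members, 4123 stood at 1 or more throughout the 16 libraries and 158 were listed at 0 in at least 1 library. Testing covered the 4510 members that reached 1 in 5 or more libraries. The 9 untested members reached it in only 3 or 4 libraries, with single values up to 53.8 and means from 5.02 to 11.1. None of the 9 had these libraries within 1 group alone.

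The members held between 12.9% and 16.5% of the sum of a library's shared values. The mean share and its SD were 14.6% ± 0.867 over 5 WKY libraries, 14.4% ± 0.952 over 5 SHR libraries and 14.9% ± 1.10 over 6 neferine libraries, and the groups overlapped. Each library listed between 26 and 41 members at 0. Spearman correlations between libraries over the tested members ran from 0.763 to 0.885. The files give no read counts, so depth is unknown. The description of SHR 1 reads as WKY, but its title, strain and group labels read as SHR. At 89.1% of 110 members called between the strains without it, SHR 1 lay nearer to the SHR mean, against 82.5% to 88.0% for the other SHR libraries and 4.95% to 17.4% for WKY libraries. It was kept in SHR. Within groups, WKY 1, WKY 3, SHR 3 and SHR 4 lay apart along the first component of the members' residuals (16.3% of their variance), with scores of -0.455 to -0.293 against 0.0967 to 0.328 for the other WKY and SHR libraries. The neferine libraries split less widely on it, with neferine 4, 5 and 6 at -0.147 to -0.141 and neferine 1, 2 and 3 at 0.120 to 0.170.

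SHR hearts differed from WKY hearts in 136 of the 4510 tested members. SHR hearts had more of 80 of them and less of 56. The call was a Benjamini-Hochberg adjusted p under 0.05 in limma, fitted to log2(value + 1) over all 24577 tested rows and 16 libraries. The share called was 3.02% of the members, near the 2.93% of all rows tested, so the members as a class were not richer in strain differences than the whole table. The share higher was 1.77% of members against 1.89% of all rows, and the share lower 1.24% against 1.04%. At an unadjusted p under 0.05 the members gave 548 transcripts (12.2%, against 11.9% of all rows), 291 higher and 257 lower (6.28% and 5.66% of all rows). Without WKY 1, WKY 3, SHR 3 and SHR 4, limma called 87 members, 56 higher and 31 lower, beside 1.79% of all rows. What separates those 4 libraries from the rest was not tested.

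The largest rises and falls in SHR were changes between near absence and clear presence, or of several fold, and appear library by library in the plot of 6 named transcripts. ENSRNOT00000088340 had values of 0, 0.232, 0.215, 0.731 and 0.323 in WKY 1, 3, 4, 5 and 6, and of 84.7, 76.9, 43.1, 13.6 and 44.1 in SHR 1, 2, 3, 4 and 6. Every SHR library was above every WKY library, but SHR values ranged widely. The log2 difference was 5.15 (SE 0.849, limma adjusted p 0.00189). With neferine its values ran from 1.24 to 109.3 with a median of 9.97, again above every WKY library and overlapping SHR. On the log2 scale its SD was 0.286 in WKY, 1.02 in SHR and 2.12 with neferine, so its level in SHR hearts is poorly fixed by these animals.

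ENSRNOT00000080900 was the steadier of the pair that rose. Its values in WKY were 0.412, 0.714, 0.353, 0.0399 and 0.262, and in SHR 33.1, 24.1, 37.2, 35.4 and 29.2, in the same order of libraries. The lowest SHR library stood far above the highest WKY library. The log2 difference was 4.60 (SE 0.174, limma adjusted p 3.84e-11). Neferine libraries ran from 24.0 to 42.9 with a median of 29.3, overlapping SHR and far above WKY. Against SHR their log2 difference was -0.0013, with a 95% confidence interval of -0.36 to 0.35.

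ENSRNOT00000033253 showed the largest fall among members whose strains did not overlap. It had values of 70.7, 70.6, 54.3, 52.4 and 50.8 in WKY and of 2.62, 2.89, 5.68, 4.37 and 3.09 in SHR. Each SHR library was thus far below each WKY library, with means of 59.8 ± 10.04 in WKY and 3.73 ± 1.28 in SHR (SD, n = 5 each). The log2 difference was -3.71 (SE 0.168, limma adjusted p 4.60e-10). Under neferine the values ran from 2.98 to 4.34 with a median of 3.4, all within the SHR range.

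ENSRNOT00000021531 fell less. Its WKY values were 49.97, 55.2, 39.5, 30.5 and 34.1, and its SHR values 3.32, 7.32, 11.2, 11.01 and 6.60. The groups stood apart by a wide gap, with a log2 difference of -2.33 (SE 0.247, limma adjusted p 1.89e-05). The neferine libraries, from 7.11 to 10.3 with a median of 7.78, again lay within the SHR range.

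**Figure D1:**
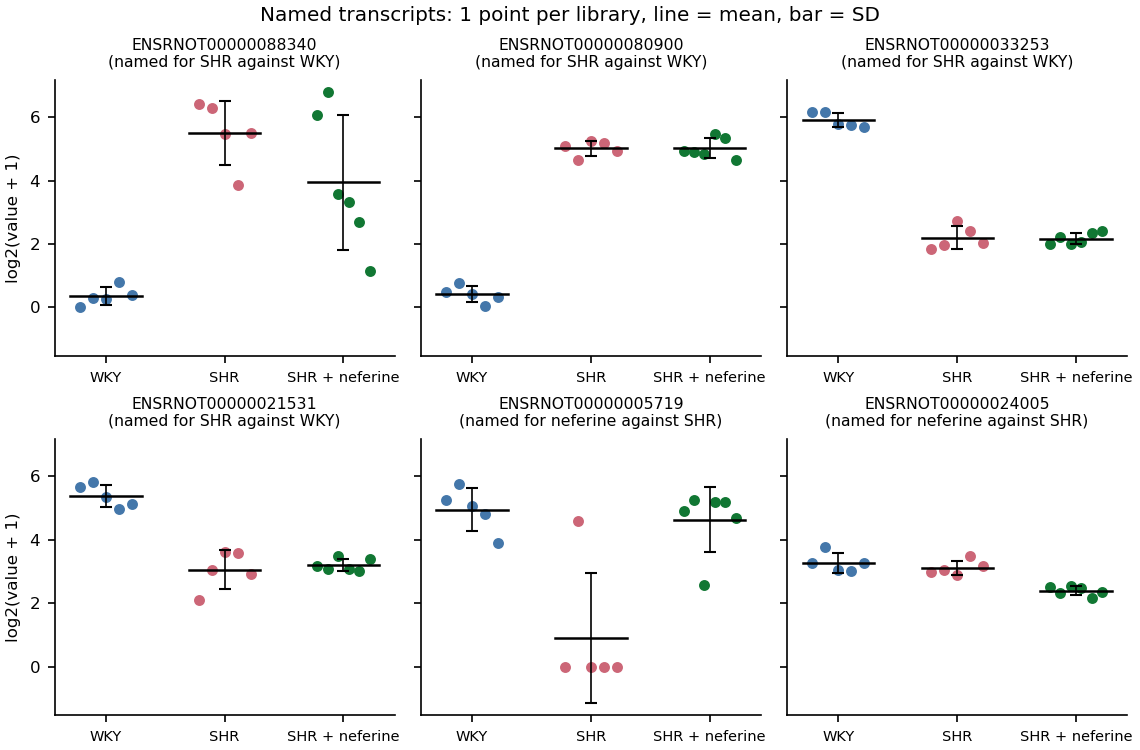
Values of the 6 named transcripts as log2(value + 1), with 1 point per library, a line at the group mean and a bar of 1 SD (WKY n = 5, SHR n = 5, SHR + neferine n = 6). The 4 transcripts named for SHR against WKY separate WKY from every SHR library, treated or not; ENSRNOT00000005719 is at 0 in 4 of 5 SHR libraries.

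Behind these came 8 further rises, with log2 differences of 2.03 to 4.06 (limma adjusted p 1.96e-10 to 0.0347), and 8 further falls, with differences of -1.80 to -1.13 (6.24e-09 to 0.0177). The mean that chose the members, with 11 of 16 libraries from SHR, admits transcripts near 0 in WKY more readily than transcripts near 0 in SHR, so the reach of rises and falls is given as a description. Of the 80 higher members, 30 had a log2 difference of at least 1 and 11 of at least 2. Among the 56 lower members, 15 had a difference of at least 1 in size and 3 of at least 2. The median difference was 0.84 among the higher and -0.71 among the lower members. For the higher members, the median of the group means was 6.87 in WKY and 16.2 in SHR, and 8 of the 80 had a WKY mean under 1. For the lower members it was 27.8 in WKY and 11.8 in SHR, and no SHR mean was under 1.

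There were 6 members (0.133% of those tested) with a value of at least 1 in every SHR library and under 1 in every WKY library. The opposite pattern was seen in 0 members. All tested rows gave 0.667% and 0.134%, so the first pattern was less frequent among members than in the whole table. The choice of members bears on this count too, since a transcript absent from WKY reaches a mean of 5 more easily than one found in WKY alone. Transcripts that some files do not list lie outside the members, so presence in a single strain can be missed here. Few annotated transcripts of moderate abundance were touched. The WKY and SHR files held 384 annotated rows that the neferine files do not list. For 3 of the 384 the values gave a mean of 5 to under 100 over the 10 libraries, and all 3 had the higher mean in WKY. The neferine files held 485 annotated rows of their own, 4 of them with a neferine mean of 5 to under 100.

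Most strain differences of the members were modest. Of the 136 called, 32 had an absolute log2 difference under 0.5, 59 from 0.5 to under 1, 31 from 1 to under 2, and 14 of 2 or more. The smallest called difference was 0.31. The median size was 0.78, against 1.14 over the 720 calls of the whole table. The 32 smallest differences were called in transcripts with little spread. Their median within-group SD on the log2 scale was 0.111 in WKY and 0.125 in SHR. Because limma weighs each difference against the spread within groups, the test favours such transcripts by construction. Conversely, 590 members differed by at least 0.5 on the log2 scale (13.1%, against 19.6% of all rows) and 185 members by at least 1 (4.10%, against 5.98% of all rows), and 140 of the 185 were not called. In 115 of the 140, the libraries of WKY or SHR had an SD of at least 1. The same weighing bears on this count.

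**Figure D2:**
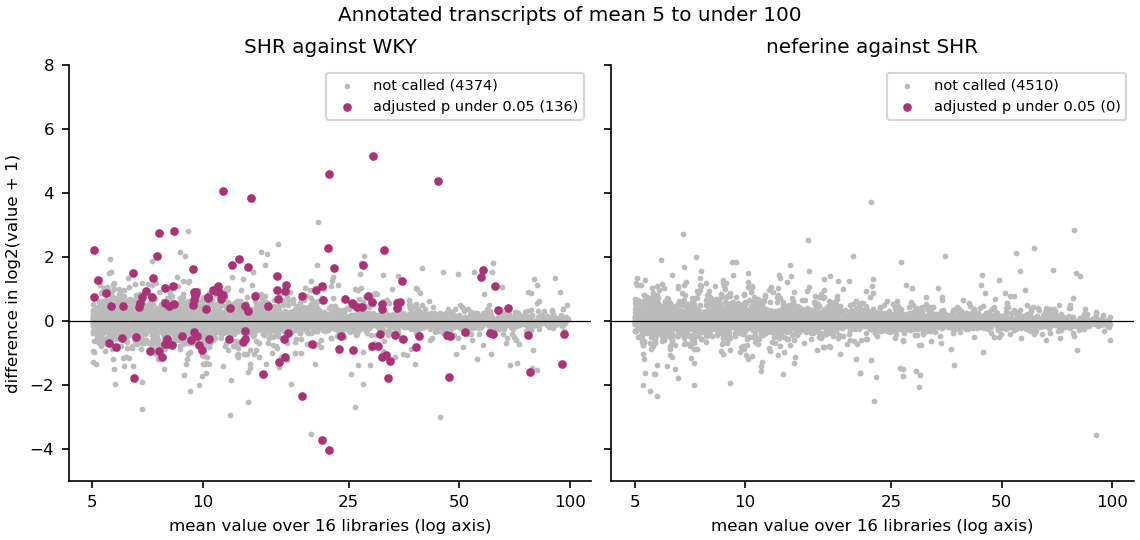
Difference in log2(value + 1) against the mean value over 16 libraries (log axis) for the 4510 tested members, SHR minus WKY at left and neferine-treated minus untreated SHR at right. Purple points passed an adjusted p of 0.05 in limma, 136 at left and 0 at right; the grey cloud narrows toward higher means.

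Neither strain led clearly over all tested members. The median log2 difference of SHR against WKY was 0.0069, with quartiles of -0.12 and 0.15, and 51.6% of members were above 0 (49.99% of all rows). It was 50.7% after median-of-ratios scaling, 49.3% after quantile normalisation and 58.2% without SHR 2. A full separation of the 5 SHR from the 5 WKY libraries was seen in 226 members, 111 higher and 115 lower in SHR. That is 5.01% of members against 4.45% of all rows. By direction it is 2.46% against 2.52% for higher and 2.55% against 1.92% for lower. Of the 136 called members, 116 did not overlap, and 110 members that did not overlap were not called. Among the lower of the 226, the median difference was -0.47 and the smallest -0.091, so many of these separations were small.

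The heat map shows the 136 called members in every library. Because they were chosen by SHR against WKY, the contrast between those columns is built in, and the neferine columns are the added information. The 80 higher members had a median log2 difference of 0.84 in SHR against WKY and of 0.78 in neferine-treated SHR against WKY. In neferine-treated against untreated SHR their median was -0.0093, with quartiles of -0.15 and 0.077. For the 56 lower members the medians were -0.71, -0.60 and 0.016. These comparisons share the WKY or the SHR libraries, and the values are set side by side without a test.

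**Figure D3:**
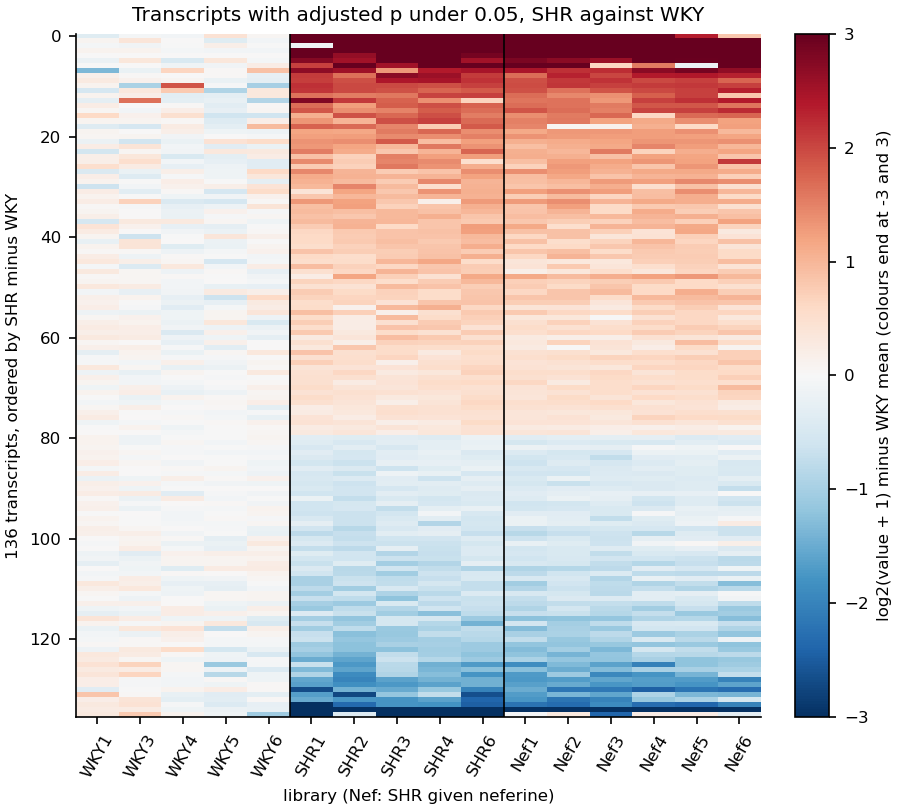
The 136 members called between SHR and WKY, 1 row each in order of their difference, in the 16 libraries; colour is log2(value + 1) minus the WKY mean, ending at -3 and 3. The 80 upper rows are red and the 56 lower rows blue in most SHR and neferine columns.

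Called members were spread over the whole abundance range, as the bars by abundance show. In SHR against WKY, 45 of 1793 members of mean 5 to under 10 were called (2.51%), 48 of 1547 from 10 to under 25 (3.10%), 31 of 757 from 25 to under 50 (4.10%) and 12 of 413 from 50 up (2.91%). Higher members outnumbered lower ones in the 3 bands under 50, with 27 against 18, 32 against 16 and 16 against 15. In the band from 50 to under 100 they were 5 against 7. Precision grew with abundance: the median SE of the difference fell from 0.178 in the lowest band through 0.152 and 0.134 to 0.129 in the highest. The mean value cannot be read as molecules per cell, since it is not known whether values were scaled by transcript length.

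**Figure D4:**
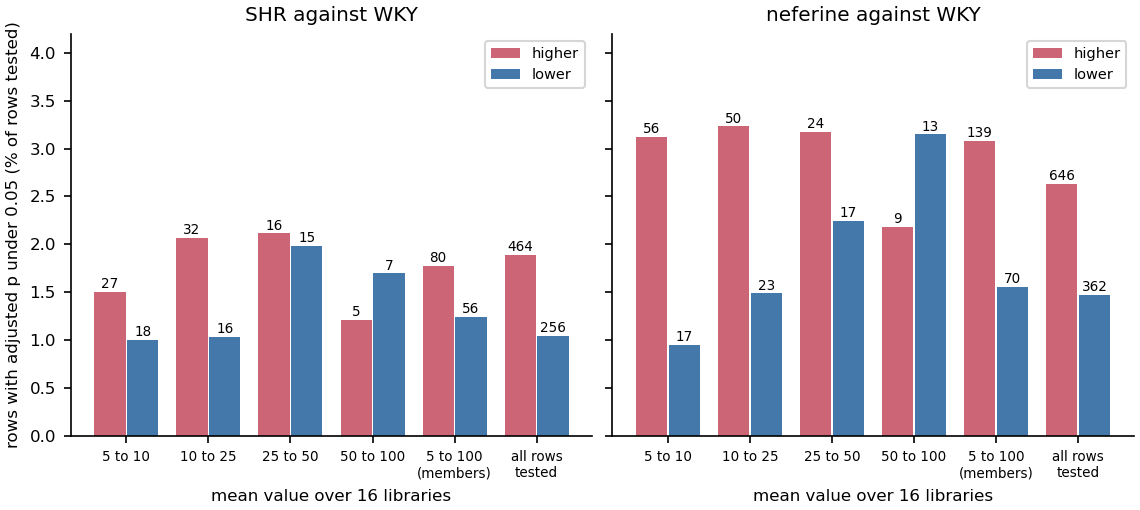
Percentage of tested rows with an adjusted p under 0.05 in limma, split into higher and lower, by mean value over 16 libraries, for SHR against WKY (left) and neferine-treated SHR against WKY (right); numbers over bars are transcripts. In both panels higher members outnumber lower ones below a mean of 50 and the reverse holds from 50 to 100.

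Neferine changed no member by the adjusted test. limma called 0 of 4510 members between treated and untreated SHR, against 1 of all 24577 rows (0.00407%), and the smallest adjusted p of a member was 0.295. At an unadjusted p under 0.05 there were 245 members (5.43%, against 5.88% of all rows). As deposited, 187 were higher with neferine (4.01% of all rows) and 58 lower (1.87%). The split was 158 and 122 after median-of-ratios scaling, 192 and 120 after quantile normalisation, and 149 and 110 without SHR 2. The shares of all rows were not computed for these splits. For most members the data bounded the difference. The 95% confidence interval lay within 2-fold in either direction, on the scale of value + 1, for 83.0% of members, against 68.6% of all rows. It did so for 77.9% of members of mean under 10 and 90.3% of those of mean 50 or more.

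How far the members leaned toward higher values under neferine depended on scaling and on SHR 2. As deposited, 59.7% were above their SHR mean (56.7% of all rows), with a median log2 difference of 0.041. The share was 50.2% after median-of-ratios scaling (51.2% of all rows) and 53.8% after quantile normalisation (49.7%). Without SHR 2 it was 51.6% (53.5% of all rows). Leaving out any other single library gave 55.5% to 64.1%. The libraries differed in level too. The median log2(value + 1) of the 4519 members was 3.84, 3.87 and 3.94 in neferine 4, 5 and 6. It was between 3.61 and 3.80 in the other 13 libraries, lowest in SHR 2. The median-of-ratios factors of neferine 4, 5 and 6 were 1.08, 1.10 and 1.11.

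Separation of all 6 neferine from all 5 SHR libraries was seen in 28 members, 19 higher and 9 lower with neferine. This is 0.621% of members, against 0.517% of all rows, and 0.421% against 0.317% for higher and 0.200% against 0.199% for lower. None passed the adjusted threshold. Their log2 differences ran from 0.17 to 1.26 among the 19 and from -2.17 to -0.26 among the 9. The split was 23 and 19 after median-of-ratios scaling and 24 and 17 after quantile normalisation. In these, 0.618% and 0.639% of all rows did not overlap. No member had values of at least 1 throughout one of these groups and under 1 throughout the other, where all rows gave 0.0285% in neferine alone and 0.0122% in SHR alone.

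The 2 members with the smallest unadjusted p in either direction differed in kind. ENSRNOT00000005719 was listed at 0 in SHR 1, 3, 4 and 6 and at 22.9 in SHR 2. In WKY 1, 3, 4, 5 and 6 its values were 37.2, 52.7, 32.4, 27.3 and 13.8, and with neferine they ran from 4.98 to 36.9 with a median of 32.1. SHR 2 thus lay among the WKY and neferine values, and the other SHR libraries lay below all of them. In neferine against SHR the log2 difference was 3.72 (SE 0.767, unadjusted p 0.000215, limma adjusted p 0.358). Without SHR 2 it was 4.63 with a limma adjusted p of 0.00126, the only member called in any fit of that comparison. The SHR libraries left in that fit are all at 0 and have no spread, so leaving out SHR 2 makes the call. In SHR against WKY the difference was -4.04 (SE 0.801, limma adjusted p 0.00861), which exceeds the falls above but with overlapping groups.

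ENSRNOT00000024005 differed less and more evenly. Its SHR values were 6.95, 7.28, 6.43, 10.1 and 8.04 in SHR 1, 2, 3, 4 and 6, and its neferine values ran from 3.52 to 4.84 with a median of 4.32. All 6 neferine libraries lay below all 5 SHR libraries. The log2 difference was -0.72 (SE 0.142, unadjusted p 0.000144, limma adjusted p 0.295), so it did not pass. WKY values were 8.71, 12.8, 7.28, 7.06 and 8.59, close to SHR (log2 difference of SHR against WKY -0.16, 95% confidence interval -0.48 to 0.16). In neferine against WKY the difference was -0.88 (SE 0.142, limma adjusted p 0.00142).

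Large differences between treated and untreated SHR came with large spread. A log2 difference of at least 1 was seen in 113 members (2.51%, against 3.32% of all rows), and in 106 of them SHR or neferine libraries had an SD of at least 1. The same held for 13 of the 14 members that differed by at least 2.

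Neferine-treated SHR differed from WKY in 209 members, 139 higher and 70 lower in the treated rats. This is 4.63% of members, against 4.10% of all rows tested, and 3.08% against 2.63% for higher and 1.55% against 1.47% for lower. The split was 140 and 100 after median-of-ratios scaling (4.44% of all rows called) and 143 and 110 after quantile normalisation (4.49%). The members called were 5.32% and 5.61%. The excess of higher members shrank but kept its direction. At an unadjusted p under 0.05 there were 559 higher and 295 lower members (9.59% and 5.81% of all rows). A group of 6 was compared here with 1 of 5, and the WKY libraries are those of the first comparison. Of the 209, 70 had an absolute log2 difference of at least 1 and 20 of at least 2, and the median size was 0.72 (1.01 over the 1008 calls of the whole table). Among all tested members, 674 differed by at least 0.5 (14.9%, against 20.5% of all rows) and 201 by at least 1 (4.46%, against 5.95%). A value of at least 1 in every neferine library and under 1 in every WKY library was found for 6 members (0.133%, against 0.692% of all rows). By abundance, higher against lower were 56 and 17 at a mean under 10, 50 and 23 from 10, 24 and 17 from 25, and 9 and 13 from 50 up. The shares called in these bands were 4.07%, 4.72%, 5.42% and 5.33%, against 4.10% of all rows. Groups did not overlap for 265 members (5.88%, against 5.03% of all rows), 157 higher and 108 lower (3.48% against 3.14%, and 2.39% against 1.89%).

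The 4 transcripts named for the strains also differed between neferine-treated SHR and WKY. In neferine against WKY the log2 difference was 4.60 for ENSRNOT00000080900, 3.58 for ENSRNOT00000088340, -3.74 for ENSRNOT00000033253 and -2.18 for ENSRNOT00000021531, all past the limma threshold (adjusted p 2.09e-11, 0.0191, 2.08e-10 and 2.33e-05). In neferine against SHR none of the 4 passed (limma adjusted p 0.836 to 0.999). The widest of these intervals was that of ENSRNOT00000088340, from -3.30 to 0.17 on the log2 scale.

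Libraries of a group agreed closely for most members. The median SD of log2(value + 1) was 0.228 in WKY, 0.241 in SHR and 0.208 with neferine, against 0.332, 0.356 and 0.335 over all tested rows. The corresponding median coefficients of variation of the values were 17.4%, 17.9% and 15.6%. In SHR, the median SD was 0.266 in the lowest abundance band, then 0.236, 0.218 and 0.206. WKY and neferine libraries showed the same decline, to 0.186 and 0.161 in the highest band. The SD was larger in SHR than with neferine for 59.1% of members and larger in WKY than in SHR for 42.7%. Without WKY 1, WKY 3, SHR 3 and SHR 4 the medians were 0.149 in WKY and 0.166 in SHR, below that of the neferine group, from which no library was left out. Leaving out libraries that stand apart lowers the SD by construction, and the median stayed lower in WKY than in SHR in that fit. The order depended on single SHR libraries. The SHR median was 0.214 without SHR 3 and 0.224 without SHR 2, below the 0.228 of WKY. It was 0.238 to 0.249 without SHR 1, 4 or 6.

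**Figure D5:**
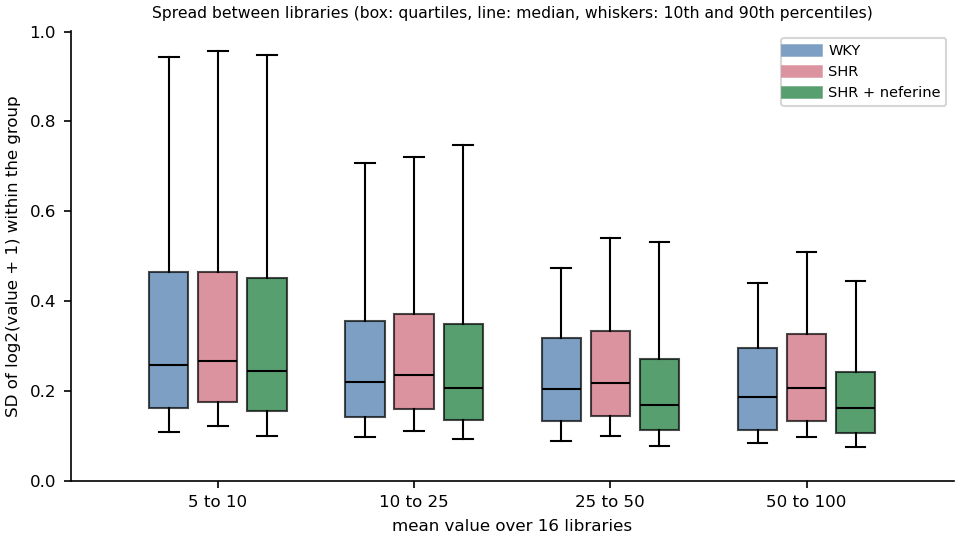
SD of log2(value + 1) between the libraries of a group (WKY n = 5, SHR n = 5, SHR + neferine n = 6) for the 4510 tested members, by mean value over 16 libraries; boxes give quartiles, lines medians and whiskers the 10th and 90th percentiles. Medians fall with abundance in each group, from 0.258, 0.266 and 0.245 at a mean under 10.

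A minority of members varied widely among animals of 1 group. An SD of at least 1 was found for 313 members in WKY, 324 in SHR and 324 with neferine. These are 6.94%, 7.18% and 7.18% of members, against 10.0%, 10.5% and 10.2% of all rows. The lists of the 3 groups overlapped, although the groups hold different animals. The 182 transcripts common to WKY and SHR were 58.1% of the WKY list and 56.2% of the SHR list, and 135 were common to all 3 groups. Across members, the Spearman correlation of the SD was 0.671 between WKY and SHR and 0.540 between WKY and neferine, a description over 4510 transcripts whose points share their abundance. Of the 532 transcripts with such an SD in any group, 150 were listed at 0 in at least 1 library, which are all of the tested members with a 0. The choice of members by their mean bears on this. A 0 among values of 5 or more in a group gives such an SD by arithmetic. A value of 0 in 1 library and of at least 5 in another of the same group was found for 87 members in WKY, 104 in SHR and 94 with neferine. Members with an SD of at least 1 in WKY or SHR were called between the strains in 5 of 455 cases (1.10%). The others were called in 131 of 4055 (3.23%). The limma test weighs a difference against this spread, so a lower share among the first is built in.

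Beside transcripts of other classes, the members lay between extremes. In SHR against WKY limma called 4.80% of 479 annotated transcripts of mean 100 or more, 1.79% of 5632 tested annotated transcripts of mean under 5, and 5.49% of 2786 tested assembled transcripts of the members' own abundance. The assembled transcripts had larger differences, with 16.1% at a log2 difference of at least 1 against 4.10% of the members. Their spread was larger too, with a median SD of 0.347 in WKY and 22.6% of transcripts at an SD of at least 1, against 6.94% of the members. None of these differences between classes was tested.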

How the data were processed

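The 16 libraries were made from heart total RNA freed of ribosomal RNA, per the labels' protocols. Each deposited file lists transcripts of 1 library with a signal, here read as a normalised level on a linear scale because it is decimal and never negative. Their scaling, the aligner, the genome build and the annotation are not given in the sources used here. limma is named, without version or role, per the submitters' processing notes. Groups and animal numbers came from the titles, and each number was taken as 1 animal. Where libraries are not from separate animals, p-values measure only the spread between libraries.

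Rows common to the 16 files that reached 1 in 5 or more libraries were fitted with limma 3.58.1 (R 4.3.3, variance trend, 1 mean per group) on log2(value + 1), with Benjamini-Hochberg adjustment over the 24577 rows. Fold changes on that scale understate changes of low values. Depth is unknown, so precision rests on the number of animals. The fit was tested on simulated data. Members, lists and tests were chosen with earlier results of these data known.

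Named were the 2 largest rises and the 2 largest falls among members called between SHR and WKY whose groups did not overlap, and the member with the smallest unadjusted p in each direction for neferine against SHR. Lists of genes by symbol could not be applied.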

Additional observations from a re-analysis of the deposited data

Results flagged for a closer look

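Among the 6 named transcripts and the group summaries, 27 sets of values were looked at, and in 2 of them 1 library stood far off. Chance alone gives about 1 in 20. ENSRNOT00000005719 was at 22.9 in SHR 2 and listed at 0 in the other 4 SHR libraries. ENSRNOT00000024005 was at 12.8 in WKY 3 and between 7.06 and 8.71 in the other WKY libraries.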

How the results depend on the processing

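The members called numbered 136 for SHR against WKY, 0 for neferine against SHR and 209 for neferine against WKY. Other pseudocounts, filters, scalings, robust moderation and fits of only the groups compared kept these within 1.5 times. An adjusted p under 0.01 left 84 and 108 for the first and last, beside 426 and 527 of all 24577 rows. A mean of 10 to under 50 gave 79 called and 120 not overlapping between the strains, since fewer transcripts enter. These are counts out of 2304 tested, where all rows gave 2.93% called and 4.45% not overlapping. Leaving out each library gave 101 to 132, 0 to 1 and 147 to 235 called. Over all rows these fits called 579 to 689, 1 to 7 and 733 to 1031. Without WKY 1, WKY 3, SHR 3 and SHR 4 together, a choice made after seeing the data, 87, 0 and 140 were called. Of all rows, 441, 1 and 653 were called. With fewer libraries more groups are free of overlap: 853, 154 and 630 members in that fit. Leaving out 1 library gave 255 to 309, 32 to 68 and 291 to 435 members without overlap. Among the fits that leave out 1 library, all-row shares were computed only without SHR 2. They were 5.83% for SHR against WKY and 1.18% for neferine against SHR. The count for neferine against SHR rose by over 1.5 times, from 28, without SHR 1 (57), SHR 2 (53), SHR 6 (55) or neferine 1 (48), 2 (45), 3 (68) or 5 (43), and that for neferine against WKY, from 265, without WKY 6 (435). Median SDs in WKY, SHR and neferine were 0.248, 0.260 and 0.224 with a pseudocount of 0.1. They were 0.149 and 0.166 without the 4 libraries, and 0.186 with neferine after median-of-ratios scaling. The cause was not tested.

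With the animal number as a replicate block, 87, 0 and 159 members were called, beside 500, 1 and 727 of all rows. The 14 same-numbered pairs had correlations of their deviations from -0.119 to 0.202, 2 of them over 0.1, and 5 of 28 comparisons were highest for the own number, so the numbers were not taken as pairs.

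The 4 transcripts named for the strains kept direction and call in all 21 alternatives. Alternatives that only redefine the members leave these fits unchanged, and the 4 were chosen as the largest calls in the same data. The limma adjusted p of ENSRNOT00000088340 ran from 7.03e-05 to 0.0423, highest without WKY 1, WKY 3, SHR 3 and SHR 4. The log2 difference of ENSRNOT00000088340 ran from 4.66 to 7.09 and that of ENSRNOT00000080900 from 4.51 to 6.32, highest with a pseudocount of 0.1, as both are near 0 in WKY. ENSRNOT00000005719 ran from 3.11 to 6.31 (limma adjusted p 0.00126 to 0.722, the lowest without SHR 2). ENSRNOT00000024005 ran from -0.83 to -0.63 (limma adjusted p 0.178 to 0.835).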
